A study of Mus musculus with 42 samples.

Results

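The cytochrome P450 genes of families 1 to 4 were followed in unirradiated (basal) liver, intestine, pancreas and thymus of mice that carried a mutant p53 allele or no p53. The members were chosen by name and by counts: protein-coding genes in the GENCODE M21 annotation whose symbol is Cyp, a family number from 1 to 4, a letter and a number, with any count in liver, intestine or pancreas. Of 80 such genes 79 were members, among 49585 genes in the table. At the edge of the rule, Cyp2b23 held 2 counts and Cyp4a30b held 3 over the 18 libraries of those tissues, and Cyp2j7, with 0 counts, was left out. Family 1 gave 3 members, family 2 gave 47, family 3 gave 9 and family 4 gave 20. The largest subfamilies were Cyp2c with 15 genes, Cyp3a and Cyp4f with 9 each, and Cyp2d and Cyp4a with 8 each. Because counts in these tissues selected the members, their levels by tissue are a description with no test.

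P450 enzymes are haem proteins of the endoplasmic reticulum that add an oxygen atom to a substrate, with electrons passed on by the reductase Por. Families 1 to 3 are best known for oxidising drugs, plant compounds and steroids in hepatocytes and enterocytes, and family 4 for oxidising fatty acids and eicosanoids at the end of the chain. Many of them are switched on by ligand-activated factors: Ahr for the Cyp1 genes, the nuclear receptors Nr1i2 (PXR) and Nr1i3 (CAR) for Cyp2b, Cyp2c and Cyp3a genes, and Ppara for Cyp4a genes. In adult mouse liver a subset differs between the sexes under the pulse pattern of growth hormone.

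The mice were 4 weeks old, on a background of 50% BALB/C and 50% C57BL6, with germline changes of p53 in the whole animal. AD mice had the genotype p53 AD/-, so they carried the allele named AD over a null allele; Null mice were p53-null; Het mice were p53 +/-. Liver, intestine and pancreas each came from 3 AD mice (AD-700, AD-701 and AD-702) and 3 Null mice (Null-859, Null-923 and Null-1087). Basal thymus came from the same mice except Null-1087, and from 3 Het mice (Het-697, Het-703 and Het-855). Irradiated thymus, taken 4 h after exposure from 4 mice each of AD, Het, Null and RP (p53 RP/-), is used in the closing sections only. The AD and Null animals share a lack of wild-type p53, and Het mice, which have it, were sampled in basal thymus but not in the other basal tissues used here.

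Libraries held 26000528 to 32487187 counts in liver, 24340398 to 34772519 in intestine, 19861977 to 24815911 in pancreas and 27828884 to 31944233 in basal thymus. Levels of 1 gene across libraries are given as CPM (counts scaled to library size with TMM factors within a tissue), and levels between genes as TPM (counts per kilobase of exon, scaled to the same sum in every library). Trp53 was read first: it stood at 14.6 to 15.6 CPM in AD and 9.51 to 10.1 in Null intestine and at 30.1 to 37.6 and 20.5 to 21.9 in thymus. In liver (4.34 to 4.82 and 3.24 to 4.64) and pancreas (2.70 to 4.19 and 3.96 to 4.78) the AD and Null ranges of Trp53 overlapped, so genotype was read from the labels. The hepatocyte markers summed to 149000 to 182000 CPM in liver and the thymocyte markers to 8672 to 9608 CPM in thymus. Intestine held the enterocyte and proximal markers Lct at 1563 to 3586 CPM and Fabp2 at 1694 to 3169 CPM, while the ileal Fabp6 and the colonic Car1 stayed under 0.3 CPM. Other listed distal markers were present. The ileum list summed to 169.2 to 217.5 CPM in AD and 150.5 to 196.5 in Null, and the colon list to 238.6 to 350.5 and 189.4 to 243.7. The proximal list summed to 8191 to 11190 CPM in AD and 8042 to 11550 in Null. The region sampled is not settled by these values. Intestine also held pancreatic acinar RNA: Cel stood at 91.7 to 13840 CPM, highest in AD-702 and Null-923. Sex was not in the labels. In liver AD-702 and Null-859 held Xist at 264.9 and 283.3 CPM and Y-linked Ddx3y at 0.49 and 0.48, and the other 4 libraries held Xist at no more than 0.44 and Ddx3y at 102.3 to 125.7. The same animals stood apart in intestine and pancreas, 1 in each genotype, and results that rest on them are given with and without them.

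Liver carried most P450 RNA. Members took 2.62 to 3.25% of all counts in liver, 0.4365 to 0.708% in intestine, 0.00728 to 0.0123% in thymus and 0.00397 to 0.00518% in pancreas. The highest mean TPM was in liver for 52 members, in intestine for 21, in thymus for 5 and in pancreas for 1, and 2 members change their tissue when CPM is used in place of TPM. A mean of at least 1 TPM was reached by 57 members in liver, 32 in intestine, 12 in thymus and 4 in pancreas, and a mean of at least 100 TPM by 30 in liver and 11 in intestine. Cyp2j6, Cyp4f13, Cyp4f17 and Cyp4v3 reached 1 TPM in all 4 tissues. Liver alone reached it for 27 members and intestine alone for Cyp2c65, Cyp2c66, Cyp2s1 and Cyp4f40. The 16 members that stayed under 1 TPM in every tissue include Cyp2b19 and Cyp4f39, known from skin, and Cyp2w1, known from fetal gut.

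**Figure D1:**
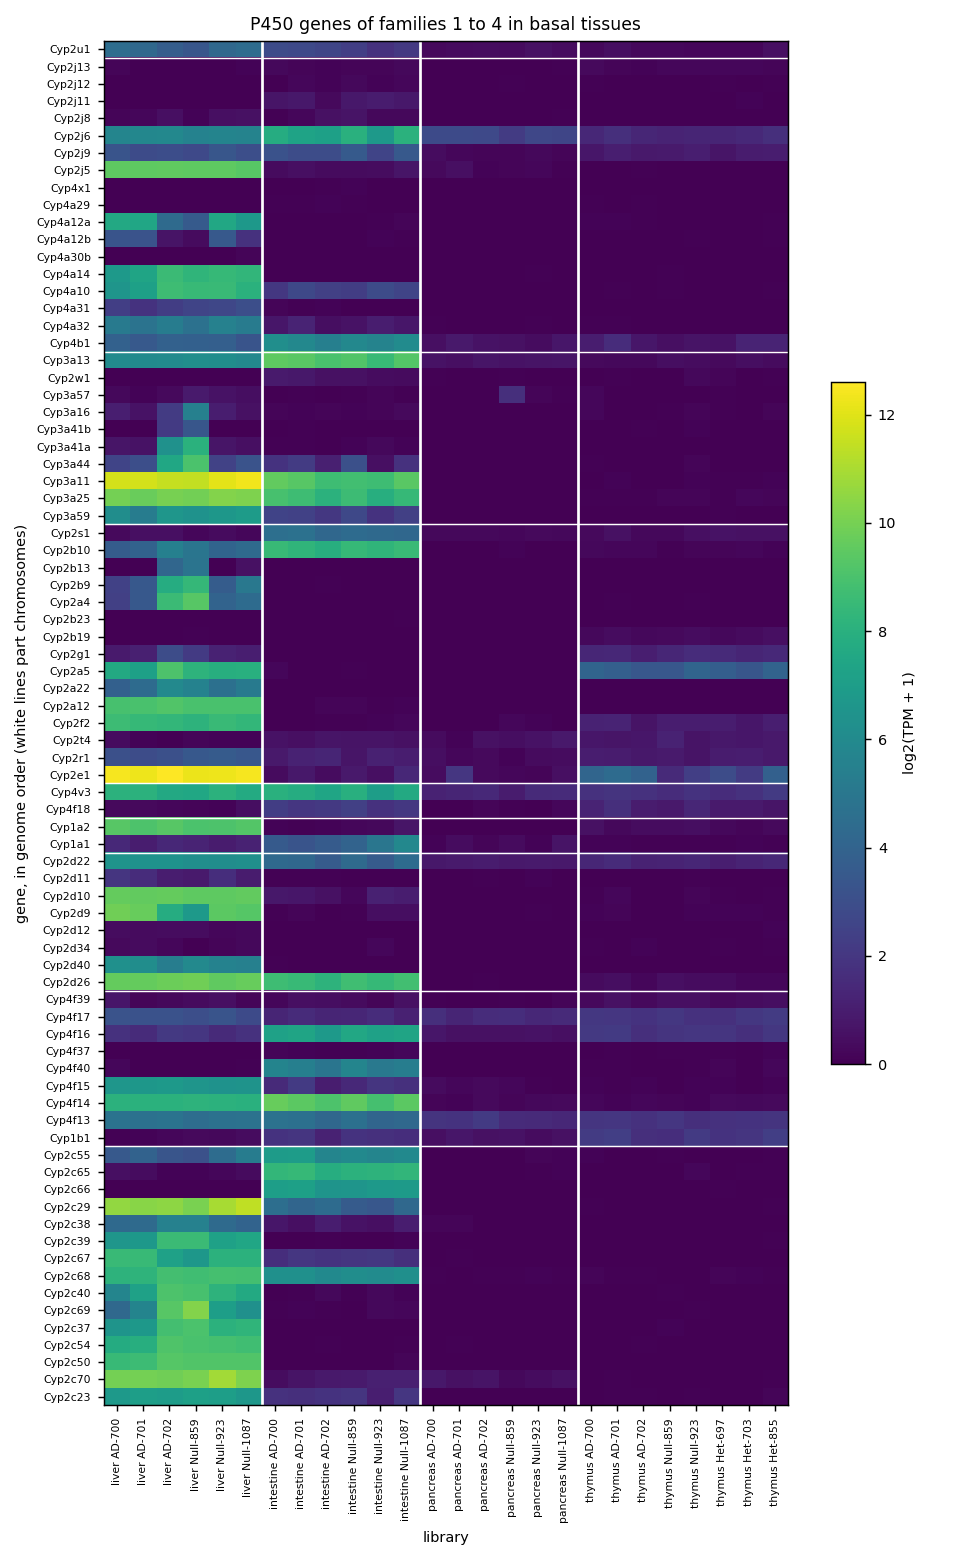
Level of the 79 P450 genes as log2(TPM + 1) in each of the 26 basal libraries, with genes in genome order on the y axis and libraries by tissue on the x axis. Liver columns hold the highest values, Cyp2e1 at a mean of 5303 TPM at the top, and pancreas columns are near 0 except for a few Cyp2j, Cyp4f and Cyp4v genes.

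In liver 5 genes made up 57% of the members' summed TPM. Cyp2e1, which oxidises ethanol and other small molecules, had a mean of 5303 TPM (SD 541, n = 6 libraries, 3 AD and 3 Null), with libraries between 4742 and 6230. Cyp3a11, the main mouse counterpart of the human drug oxidase CYP3A4, had 3715 TPM (SD 906, n = 6), with libraries between 2761 and 5106. Cyp2c29, an arachidonic acid epoxygenase, followed at 1662 TPM (SD 591, n = 6), Cyp2c70, which makes muricholic acids from bile acids, at 1178 TPM (SD 355, n = 6) and Cyp3a25 at 1036 TPM (SD 137, n = 6). The spreads of Cyp2c29, Cyp2c70 and Cyp3a25 overlap, so their order is not settled by 6 libraries. The order of Cyp2e1 and Cyp3a11 depends on the length term. TPM used 5093 bases of joined exons for Cyp3a11, whose longest transcript has 2802, and 2158 for Cyp2e1, whose longest has 1833. Scaled to library totals with no length term, Cyp3a11 had a mean of 8783 CPM in liver and Cyp2e1 5309. Below them the drug and caffeine oxidase Cyp1a2 stood at 581 TPM (SD 52.2, n = 6), the bile acid hydroxylase Cyp2a12 at 513 TPM (SD 31.1, n = 6), Cyp2d26 at 820 TPM (SD 70.5, n = 6) and the epoxygenase Cyp2j5 at 704.5 TPM (SD 28.9, n = 6). The spread between libraries was far from even: Cyp2a12 and Cyp2j5 kept within 481 to 572 and 649.1 to 729.6 TPM, while Cyp2a4 ran from 4.26 to 653.3 TPM and Cyp2c69 from 18.2 to 1251 TPM.

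Intestine shared some of its highest genes with liver and differed in others. Cyp3a11 and Cyp3a25 were among the 5 highest by TPM in both tissues. By TPM, Cyp4f14, a family 4 enzyme that oxidises leukotrienes, stood highest at 658.8 TPM (SD 132, n = 6). Cyp3a13 at 569 TPM (SD 126, n = 6) and Cyp3a11 at 557 TPM (SD 154, n = 6) followed, and the spreads of these 3 genes overlap. Cyp2d26 (375.7 TPM) and Cyp3a25 (359.5 TPM) came next, then Cyp2b10, the classic Nr1i3 target, at 318 TPM (SD 50.2, n = 6) against 22.4 TPM (SD 12.1, n = 6) in liver. Cyp2c65 at 298 TPM (SD 43.5, n = 6) and Cyp2c66 at 114 TPM (SD 20.3, n = 6) were at 0.226 and 0.006 TPM in liver, where Cyp2c66 had 0 counts in 5 of 6 libraries. Cyp4f16 at 152 TPM (SD 26, n = 6) and Cyp4f40 at 41.1 TPM (SD 8.91, n = 6) stood at 2.50 and 0.037 TPM in liver. The Ahr target Cyp1a1 had a mean of 22.4 TPM (SD 19.3, n = 6) in intestine and 1.34 TPM (SD 0.332, n = 6) in liver. Cyp2e1, first in liver by TPM, was at 0.718 TPM (SD 0.522, n = 6) in intestine. Scaled to library totals with no length term, Cyp3a11 was first in intestine at a mean of 1363 CPM. Cyp3a13 had 809.5 and Cyp4f14 766.7 CPM on that scale, so the first place depends on the length term.

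Pancreas and thymus held few P450 transcripts. In pancreas Cyp2j6, an epoxygenase, was highest at 5.36 TPM (SD 0.946, n = 6), then Cyp4f13 at 2.36, Cyp4f17 at 1.92 and Cyp4v3 at 1.53 TPM. Single libraries stood out for a pair of genes: Cyp2e1 was at 4.35 CPM in pancreas of AD-701 and at 0.202 to 0.660 CPM in the other 5 libraries, and Cyp3a57 was at 4.02 CPM in Null-859 and at no more than 0.151 in the others. The adipocyte gene Adipoq stood at 5.35 CPM in pancreas of AD-701 and at no more than 1.60 CPM in the other 5 libraries, and its part in the Cyp2e1 value was not tested. In basal thymus of the 5 AD and Null mice, Cyp2a5, a coumarin hydroxylase, had 12.8 TPM (SD 3.02), Cyp2e1 11.4 TPM (SD 7.99), Cyp1b1, which oxidises oestrogens and retinoids, 3.08 TPM (SD 0.867), Cyp4f16 2.94 TPM (SD 0.446) and Cyp4f17 2.85 TPM (SD 0.311). The last 3 overlap in their spread. In bulk tissue, fewer cells of a type and less RNA per cell cannot be told apart.

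Neighbours in the genome did not always share a tissue. On chromosome 19 of GRCm38, 14 Cyp2c genes lie in a row at chr19:39007019-40187333; the first 3 in order, Cyp2c55, Cyp2c65 and Cyp2c66, were highest in intestine and the following 11, from Cyp2c29 to Cyp2c70, were highest in liver. All 8 Cyp2d genes at chr15:82370527-82794294 were highest in liver. Of the 8 Cyp3a genes at chr5:145345279-146113287, 7 were highest in liver and Cyp3a57, under 1 TPM in every tissue, in pancreas. In the Cyp4f row at chr17:32452723-32947402, 4 of 8 were highest in intestine, 3 in liver and 1 in thymus. Cyp1a2 and Cyp1a1 are neighbours at chr9:57676937-57703824, and the first was highest in liver and the second in intestine.

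Close copies limit some of these levels. The share of 50-base stretches of a member's transcript that also occur in another gene's transcript was 98.6% for Cyp3a41a, 93.5% for Cyp3a41b, 72.1% for Cyp2c40, 54.8% for Cyp2c69 and 52.8% for Cyp2c67, and over 20% for 28 of 79 members. Reads from such stretches can be dropped or given to a copy, and how the authors' counting treated them is not given in the sources used here, so the levels of these genes are uncertain.

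Upstream sequence was read for the members with a RefSeq promoter (GRCm38.p6), 65 of 79, over the 250 bases before the start. Sites of 7 kinds were searched by their letters on both strands. CAAAGTCCA, a core site of the hepatocyte factor Hnf4a, occurred in 10 of 65 members (15.4%) and in 0.381% of 27025 promoters; it was in 9 of the 39 members with a promoter that were highest in liver and in 1 of the 20 highest in intestine, Cyp2c65. All 10 are Cyp2c and Cyp3a genes, and genes within each subfamily are partial copies, so they are not independent. TATAAA, the letters of a TATA box, occurred at any place in the window and on either strand in 40% of members and 13% of promoters. The nuclear receptor core site AGGTCA occurred in 24.6% and 13.8%, the HNF1 core GTTAAT in 13.8% and 6.52%, and the C/EBP site TTNNGCAA in 21.5% and 9.55%. The STAT5 site TTCNNNGAA was found in 6.15% of members and 7.18% of promoters, and GCGTG, the core that Ahr reads, in 18.5% and 28.2%. Each is a match of letters in a window and not a measured site.

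To show the shared site in its surroundings, windows of 12 bases on each side are given 5′ to 3′ on the strand of the gene, with CAAAGTCCA in capitals. The Cyp2c40 and Cyp2c69 windows have the same letters, as do the windows of Cyp3a16, Cyp3a41a and Cyp3a41b.
Cyp2c40, chr19:39812839-39812871, minus strand: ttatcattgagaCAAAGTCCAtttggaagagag
Cyp2c67, chr19:39649147-39649179, minus strand: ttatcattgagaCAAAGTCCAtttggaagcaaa
Cyp2c68, chr19:39741158-39741190, minus strand: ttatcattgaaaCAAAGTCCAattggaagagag
Cyp2c65, chr19:39060878-39060910, plus strand: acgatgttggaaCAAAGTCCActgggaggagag
Cyp2c70, chr19:40187330-40187362, minus strand: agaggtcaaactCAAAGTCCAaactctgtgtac
Cyp3a11, chr5:145879943-145879975, minus strand: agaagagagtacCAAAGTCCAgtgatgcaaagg
Cyp3a16, chr5:145469802-145469834, minus strand: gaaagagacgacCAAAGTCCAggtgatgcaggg

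Whole upstream windows of 250 bases are given for 4 genes that differ in tissue: Cyp3a11, high in liver and intestine, Cyp2c29, high in liver, and Cyp2c65 and Cyp1a1, highest in intestine. Capitals mark the letters of the Hnf4a core, TATAAA, the nuclear receptor core and the Ahr core spelled out above. Counted from the start, TATAAA begins at -19 in Cyp2c29 and -30 in Cyp1a1, but at -162 in Cyp2c65 and -234 in Cyp3a11. In Cyp2c65 and Cyp3a11 it is marked as a match of letters and not as a TATA box.
Cyp3a11, chr5:145879855-145880104, minus strand: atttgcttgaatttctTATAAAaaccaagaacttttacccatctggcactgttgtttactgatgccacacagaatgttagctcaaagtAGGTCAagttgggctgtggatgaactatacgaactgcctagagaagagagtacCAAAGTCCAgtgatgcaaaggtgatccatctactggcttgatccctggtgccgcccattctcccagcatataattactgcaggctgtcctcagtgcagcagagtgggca
Cyp2c29, chr19:39286835-39287084, plus strand: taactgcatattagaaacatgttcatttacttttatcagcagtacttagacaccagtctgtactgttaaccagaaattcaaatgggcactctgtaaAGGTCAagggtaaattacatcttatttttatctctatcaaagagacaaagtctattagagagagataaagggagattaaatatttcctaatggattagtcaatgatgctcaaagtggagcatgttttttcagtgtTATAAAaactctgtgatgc
Cyp2c65, chr19:39060756-39061005, plus strand: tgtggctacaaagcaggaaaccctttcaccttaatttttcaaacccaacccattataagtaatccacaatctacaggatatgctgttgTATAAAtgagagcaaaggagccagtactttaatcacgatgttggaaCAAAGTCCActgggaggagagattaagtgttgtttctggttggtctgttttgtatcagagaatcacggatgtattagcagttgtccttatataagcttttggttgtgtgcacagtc
Cyp1a1, chr9:57697363-57697612, plus strand: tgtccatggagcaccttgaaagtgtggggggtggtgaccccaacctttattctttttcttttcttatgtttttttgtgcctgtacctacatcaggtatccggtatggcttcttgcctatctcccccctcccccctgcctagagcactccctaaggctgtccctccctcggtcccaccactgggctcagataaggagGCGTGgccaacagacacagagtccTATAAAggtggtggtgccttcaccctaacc

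Large spreads within liver went with the animals that had high Xist, 1 in each genotype. Of 61 members tested in liver, 18 had both AD-702 and Null-859 above the other 4 libraries, where 9.74% of 15755 genes did, and 11 had both below, where 8.8% of genes did. All 11 tested genes of a list of P450 genes known to be higher in adult female mouse liver were among the 18, and all 4 of the male list, Cyp2d9, Cyp2u1, Cyp4a12a and Cyp4a12b, were among the 11. These lists were written with earlier results of these data known and are no independent evidence. Cyp2a4, a steroid hydroxylase, stood at 296 CPM in AD-702 and 533.9 in Null-859 and at 3.34, 8.32, 12.3 and 16.8 CPM in the others. Cyp2b13 stood at 14.2 and 24.6 CPM in that pair and at 0, 0, 0 and 0.411 CPM in the others. Cyp3a41a was at 75.2 and 255.7 CPM against 0.411 to 0.604, and Cyp3a16 at 2.76 and 35.7 CPM against 0.411 to 0.831. In the other direction the steroid hydroxylase Cyp2d9 was at 257 and 137 CPM against 767 to 1120, and the arachidonate hydroxylase Cyp4a12a at 21.02 and 12.34 CPM against 118 to 213. These libraries were grouped by Xist, not by a label, so no test is given.

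**Figure D2:**
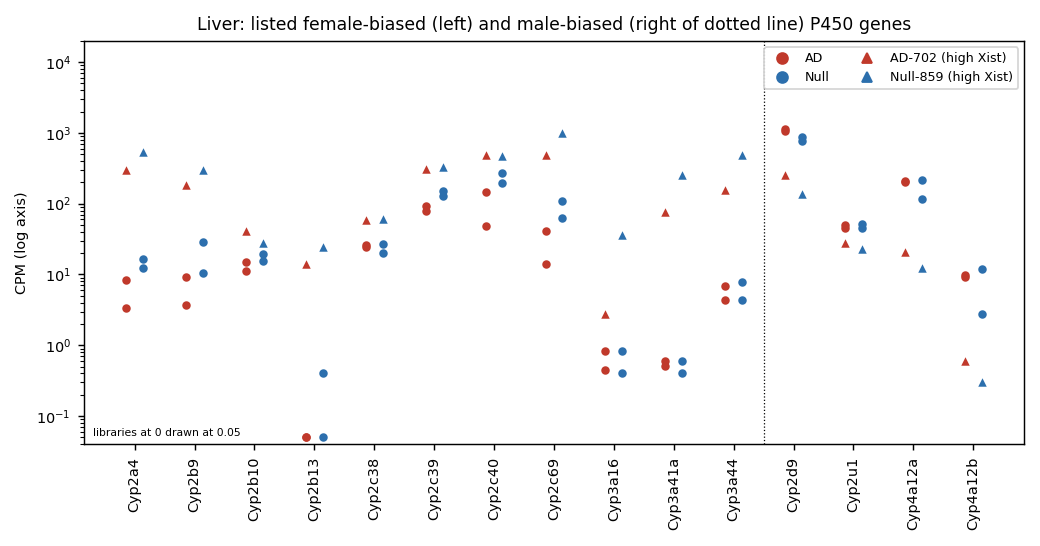
CPM on a log axis of 15 P450 genes listed as female-biased (left of the dotted line) or male-biased (right) in each of the 6 basal liver libraries, red for AD and blue for Null, with triangles for AD-702 and Null-859. For every gene drawn both triangles lie above all circles on the left and below all circles on the right.

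AD and Null livers were compared over 3 mice each, to see whether the mutant allele changed P450 transcripts. No member passed the threshold, an adjusted p under 0.05 over all genes by edgeR's quasi-likelihood test, where 42 of 15755 genes (0.267%) did, and DESeq2 called none of the members either. At an unadjusted p under 0.05 edgeR held 8 of 61 members, all lower in AD (Cyp1b1, Cyp2c50, Cyp2c68, Cyp2c70, Cyp2r1, Cyp3a25, Cyp3a57 and Cyp4a31), against 9.45% of all genes. The AD and Null libraries did not overlap, with AD lower, for 7 of 61 members (7.39% of genes) and, with AD higher, for 2, Cyp2j6 and Cyp2d22 (7.89% of genes). The lowest adjusted p in edgeR was 0.269, for Cyp2r1, the vitamin D hydroxylase, at 7.17, 6.78 and 6.91 CPM in AD and 9.92, 11.3 and 9.52 in Null, a log2 fold change of -0.56 ± 0.16 (± is the standard error throughout). The median log2 fold change was -0.068 over the members tested and 0.000173 over all genes.

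Single genes show where the spread came from. Cyp2c70 was at 891, 963 and 806 CPM in AD-700, AD-701 and AD-702 and at 1008, 1774 and 1088 in Null-859, Null-923 and Null-1087, a log2 fold change of -0.54 ± 0.21 (edgeR adjusted p = 0.493). The 2 groups did not overlap, but the highest AD library lay close to the lowest Null library. Cyp2c50 was at 476, 558 and 790 CPM in AD and 786, 819 and 809 in Null (-0.40 ± 0.17, adjusted p = 0.492 by edgeR). Only AD-700 and AD-701 were below the Null range; AD-702 was within it. Cyp2c37 repeated this layout, at 74.7, 91.4 and 369 CPM in AD against 454, 241 and 263 in Null. For the fatty acid hydroxylases Cyp4a10 and Cyp4a14, both Ppara targets, AD-700 and AD-701 again lay below the Null range, with AD-702 above it: Cyp4a10 was at 91.2, 143 and 385 CPM in AD and 354, 370 and 258 in Null, and Cyp4a14 at 125, 202 and 448 CPM in AD and 371, 424 and 388 in Null. Their log2 fold changes were -0.66 ± 0.63 (adjusted p = 0.83) and -0.61 ± 0.52 (adjusted p = 0.803) by edgeR.

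Of the most abundant genes, Cyp2e1 differed by 0.09 ± 0.10, with AD at 5152 to 5925 CPM and Null at 4811 to 5534. Cyp1a2 differed by 0.10 ± 0.10, Cyp3a13 by -0.10 ± 0.11 and Cyp3a11 by -0.34 ± 0.24, with Cyp3a11 at 8181, 8711 and 6442 CPM in AD and 6612, 10723 and 12234 in Null. Cyp2c29 differed by -0.49 ± 0.35 and Cyp3a25 by -0.29 ± 0.11. Among members with a mean of at least 1 on the log2 CPM scale, the lowest log2 fold changes were those of the female-biased Cyp3a16 (-3.19 ± 2.10), Cyp3a41a (-1.75 ± 3.08) and Cyp3a44 (-1.55 ± 2.51), whose values rest on AD-702 and Null-859, and the highest those of Cyp2g1 (0.50 ± 0.91), Cyp2d9 (0.45 ± 0.96) and Cyp2c67 (0.41 ± 0.60). In each of these 6 the standard error was large beside the change. Cyp2b10 differed by 0.08 ± 0.60, Cyp4b1 by 0.07 ± 0.19, and the low Cyp1a1 and Cyp1b1 by 0.22 ± 0.33 and -1.37 ± 0.60.

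**Figure D3:**
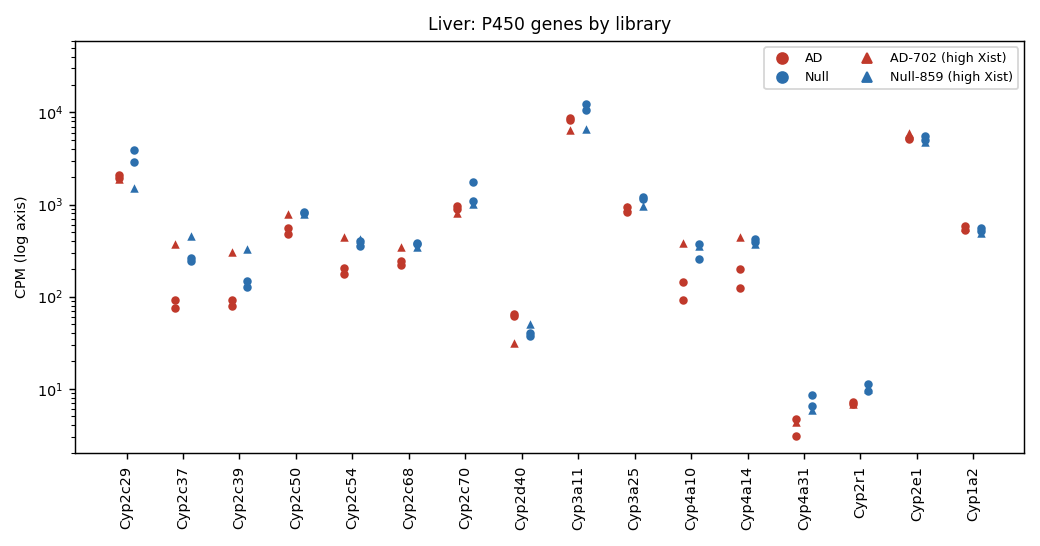
CPM on a log axis of 16 P450 genes in the 6 basal liver libraries, red for AD and blue for Null, with triangles for AD-702 and Null-859. For Cyp2c37, Cyp2c54, Cyp4a10 and Cyp4a14 the red circles (AD-700 and AD-701) lie below all Null libraries while the red triangle (AD-702) lies within or above them.

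Without AD-702 and Null-859, an alternative added after the data were seen, the comparison had 2 livers a group, and its calls differed. With edgeR, 233 of 15868 genes (1.47%) were called, and 7 of 60 members. Of the members called, 6 Cyp2c genes fell in AD. Their log2 fold changes were -1.60 ± 0.13 for Cyp2c37 (edgeR adjusted p = 0.000921), -0.99 ± 0.12 for Cyp2c54 (0.00553), -0.75 ± 0.15 for Cyp2c29 (0.0385), -0.72 ± 0.11 for Cyp2c68 (0.0157), -0.70 ± 0.13 for Cyp2c39 (0.0302) and -0.65 ± 0.12 for Cyp2c50 (0.0305). Cyp2c37, Cyp2c50 and Cyp2c54 lie next to each other near the far end of the chromosome 19 row and share 16.6 to 30.1% of their 50-base stretches with other genes. Cyp2d40 rose by 0.71 ± 0.11 (edgeR adjusted p = 0.0187), from 40.2 and 37.4 CPM in Null to 64.9 and 61.8 in AD. Cyp4a14 missed the threshold at -1.31 ± 0.22 (edgeR adjusted p = 0.0506), as did Cyp4a10 at -1.42 ± 0.28 (0.122). The median log2 fold change was -0.026 over the 60 members and -0.00696 over all genes.

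The pair left out holds 1 library of each genotype and gives values only. AD-702 and Null-859 held Cyp2c37 at 369 and 454 CPM, Cyp2c39 at 308 and 328, Cyp2c50 at 790 and 786, Cyp2c54 at 444 and 418, Cyp2c68 at 344 and 345, Cyp2c29 at 1886 and 1520, and Cyp2d40 at 31.5 and 51. Whether the genotype difference itself differs between the pair and the other 4 animals was not tested.

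**Figure D4:**
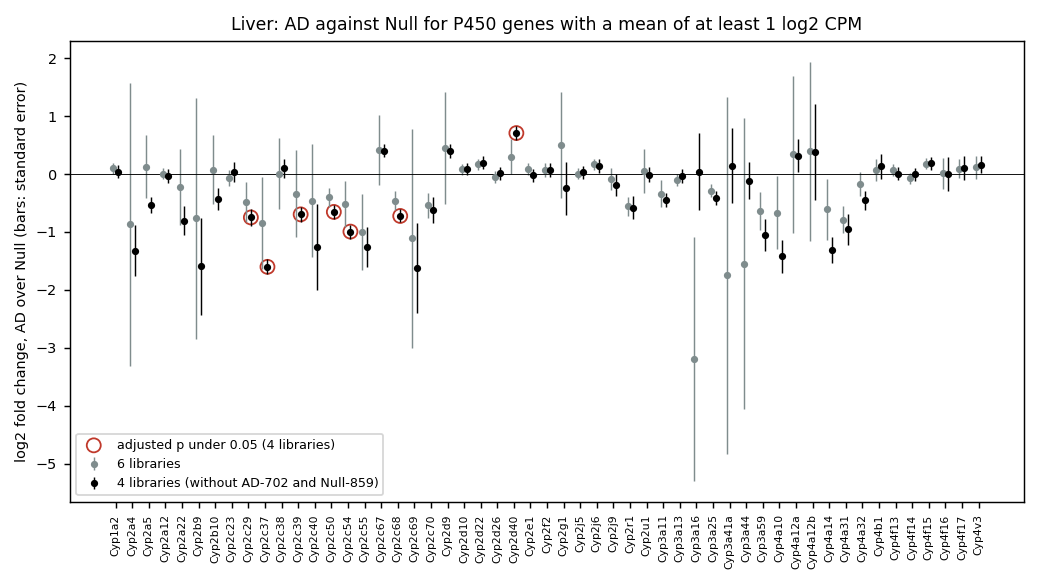
Log2 fold change of AD over Null in liver with its standard error (bars) for the P450 genes whose mean log2 CPM is 1 or more, in grey over 6 libraries and in black over the 4 libraries without AD-702 and Null-859. Red rings mark the 7 genes with an adjusted p under 0.05 over 4 libraries, 6 of them Cyp2c genes below 0 and 1 above 0, Cyp2d40.

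The genes that serve P450 enzymes were read beside them. None of 7 partners (Por, the cytochrome b5 system and the Pgrmc haem-binding proteins) was called by edgeR over 6 liver libraries, with 4 at an unadjusted p under 0.05, and the reductase Por stood at 228, 179 and 277 CPM in AD and 177, 188 and 168 in Null (0.36 ± 0.14, edgeR adjusted p = 0.48). None of 12 genes of haem synthesis and breakdown was called (2 at an unadjusted p under 0.05), and the first enzyme of the route, Alas1, ran from 121 CPM in Null-859 to 1554 in Null-1087. None of 32 tested genes of conjugation and transport was called (3 at an unadjusted p under 0.05). Of 29 regulators tested, edgeR held 9 at an unadjusted p under 0.05, all 9 higher in AD, against 9.45% of all genes in either direction. It called 2, where 0.267% of all genes were called. These were the circadian output factors Dbp (4.94 ± 0.26, edgeR adjusted p = 1.64e-05) and Tef (1.83 ± 0.14, adjusted p = 0.000303), which are known to drive Cyp2a and Cyp2c genes in mouse liver. Dbp was at 13.8, 13.8 and 13.3 CPM in AD-700, AD-701 and AD-702 and 0.443, 0.604 and 0.285 in Null-859, Null-923 and Null-1087, so the groups did not overlap. The hour of tissue collection was not in the labels, and its part in these values was not tested. Nr1i2 differed by 0.54 ± 0.13 (adjusted p = 0.18), Ppara by 0.46 ± 0.27 (adjusted p = 0.677) and Hnf4a by 0.37 ± 0.15 (adjusted p = 0.477) by edgeR. Over the 4 libraries without AD-702 and Null-859, Ppara rose by 0.85 ± 0.15 (edgeR adjusted p = 0.0295), in a fit that called 1.47% of all genes. The whole regulator list was not read in that fit. Of the other regulators only Dbp, Tef, Nr1i2, Nr1i3 and Ahr were, and edgeR called Dbp and Tef. Over the same 4 animals edgeR did not call Dbp or Tef outside liver. They differed by 1.66 ± 0.39 and 1.32 ± 0.28 in intestine (adjusted p = 0.309 and 0.383) and by -0.44 ± 0.51 and 0.48 ± 0.22 in pancreas (0.700 and 0.323).

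In intestine no member was called over 6 libraries by edgeR, where 3 of 20011 genes (0.015%) were. At an unadjusted p under 0.05 edgeR held 6 of 43 members, 5 higher in AD and 1 lower, against 6.09% of all genes. DESeq2 called 1, Cyp2u1. Cyp2u1, a hydroxylase of long-chain fatty acids, was at 16.5, 14.4 and 14.4 CPM in AD and 9.51, 5.97 and 8.12 in Null, and the groups did not overlap. Its log2 fold change was 0.94 ± 0.17, with an adjusted p of 0.199 by edgeR and of 0.000441 by DESeq2. With AD higher, 3 of 43 members did not overlap, Cyp2u1, Cyp2s1 and Cyp2w1 (5.76% of genes), and with AD lower 1, Cyp1a1 (6.42% of genes). Cyp2s1, an epithelial P450, was at 58.2, 56.2 and 46.6 CPM in AD and 45.1, 43.5 and 41.8 in Null (0.30 ± 0.10, edgeR adjusted p = 0.745). Cyp1a1 was at 14.9, 11.3 and 16.8 CPM in AD and 19.3, 39.0 and 77.7 in Null, a log2 fold change of -1.66 ± 0.59 (edgeR adjusted p = 0.81). The Null libraries of Cyp1a1 spread widely, while Ahr stood at 36.2 to 47.1 CPM and Tiparp, another Ahr target, at 41.1 to 55.0 CPM in the 6 libraries.

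Cyp2c55, which hydroxylates arachidonic acid, was at 118, 114 and 56.6 CPM in AD and 57.0, 48.4 and 59.2 in Null (0.81 ± 0.30, edgeR adjusted p = 0.804). AD-702 lay within the Null range. Without AD-702 and Null-859 edgeR called 20 of 20034 genes (0.0998%) and 1 of 44 members, Cyp2c55, at 1.11 ± 0.14 (adjusted p = 0.0304). AD-702 is also the intestine library with the most acinar RNA, with the list summed to 97640 CPM against 783 for the lowest AD library, and the part of that RNA in its value was not tested. Cyp2c29 differed by 0.68 ± 0.28 in intestine, the opposite sign to liver. EdgeR called none of the abundant genes. Cyp4f14 differed by 0.21 ± 0.20, Cyp3a13 by 0.38 ± 0.21, Cyp3a11 by 0.34 ± 0.25, Cyp3a25 by 0.33 ± 0.24, Cyp2d26 by -0.10 ± 0.15, Cyp2b10 by -0.11 ± 0.15 and Cyp4b1 by 0.08 ± 0.20. Many of these genes had their lowest library in Null-923, where Cyp3a13 was at 500.1 CPM against 782 to 1064 in the others. Vil1, 1 of the listed enterocyte markers, was lowest there too, at 1671 CPM against 2262 to 3101. The whole enterocyte list summed to 23650 to 32730 CPM in AD and 18470 to 29500 in Null. Null-923 and AD-702 were also the intestine libraries with the highest acinar Cel. The part of enterocyte or acinar RNA in these values was not tested. Further from 0 on the negative side were Cyp3a44 (-0.42 ± 0.99) and Cyp2j9 (-0.21 ± 0.28), and Cyp1b1 differed by 0.02 ± 0.22, Cyp4a10 by -0.16 ± 0.25 and the low Cyp2e1 by -1.03 ± 0.53.

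**Figure D5:**
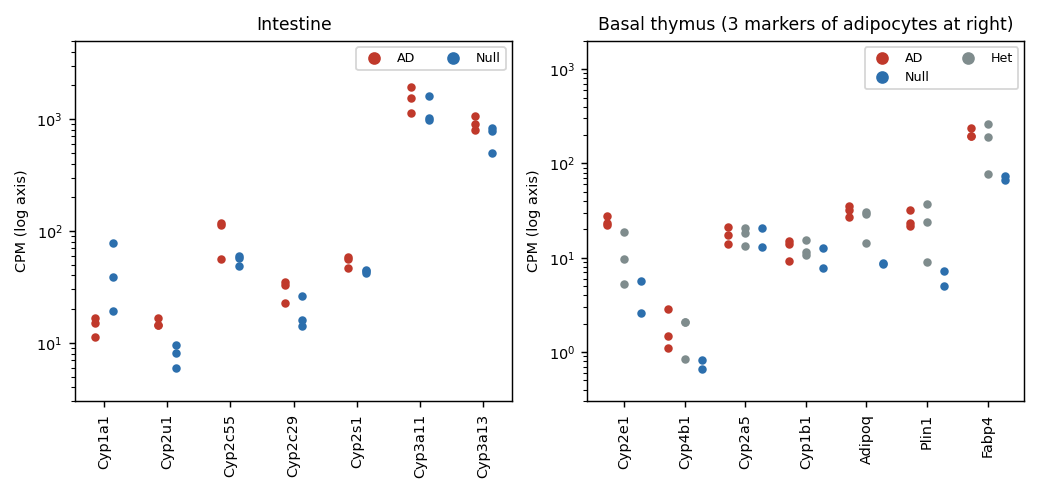
CPM on a log axis of P450 genes by library in intestine (left, 3 AD and 3 Null) and in basal thymus (right, 3 AD, 3 Het and 2 Null) with the adipocyte markers Adipoq, Plin1 and Fabp4. In intestine Cyp2u1 lies higher and Cyp1a1 lower in every AD library than in every Null library, and in thymus the 3 markers lie lowest in the 2 Null libraries, while Cyp2e1 there overlaps Het and not AD.

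In pancreas 14 members passed the filter on low counts, and the other 65 did not. EdgeR and DESeq2 called none of the 14, where edgeR called 8 of 14604 genes (0.0548%), and 2 of 14 had an unadjusted p under 0.05 in edgeR, Cyp4f13 and the low Cyp2t4, against 8.09% of all genes. Cyp4f13, a family 4 enzyme found in every tissue here, was at 8.38, 7.86 and 9.19 CPM in AD and 7.61, 5.55 and 4.95 in Null (0.49 ± 0.18, edgeR adjusted p = 0.538). It was the 1 member with all AD libraries higher (6.75% of genes), and Cyp2u1, Cyp2s1 and Cyp2t4 had all AD libraries lower (6.66% of genes). Cyp2j6 differed by 0.17 ± 0.14, Cyp4v3 by -0.22 ± 0.22, Cyp4f17 by -0.17 ± 0.24 and Cyp2d22 by -0.14 ± 0.25. Cyp1b1 differed by -0.04 ± 0.31. At lower levels, Cyp1a1 differed by -0.96 ± 0.65, Cyp3a13 by -0.30 ± 0.33 and Cyp4b1 by 0.04 ± 0.42. Without AD-702 and Null-859 edgeR called 180 of 14531 genes (1.24%) and none of 16 members, of which 3 had an unadjusted p under 0.05; DESeq2 was not run on these 4 libraries.

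In basal thymus 25 members were tested over 8 libraries and edgeR called none, where 15 of 22173 genes (0.0676%) were called; 2 of 25 had an unadjusted p under 0.05, near the 7.69% of all genes, and DESeq2 called 1, Cyp2e1. Cyp2e1 was at 23.4, 27.6 and 22.04 CPM in AD, at 2.58 and 5.69 in Null and at 9.75, 5.33 and 18.7 in Het. AD and Null did not overlap and Het lay between, with its lowest library inside the Null range. The log2 fold change of AD over Null was 2.56 ± 0.64, with an adjusted p of 0.468 by edgeR, 0.00539 by DESeq2 and 0.0181 by edgeR on the AD and Null libraries only. Cyp4b1, the other member, was at 1.47, 2.87 and 1.11 CPM in AD and 0.660 and 0.817 in Null (1.30 ± 0.48, edgeR adjusted p = 0.56). Adipocyte markers moved with both: 10 of 10 listed markers had a log2 fold change above 0 with a median of 1.44, edgeR called none (7 had an unadjusted p under 0.05), and the list summed to at least 541.9 CPM in AD, 341.8 to 714.2 in Het and at most 300.5 in Null. Other stromal lists were also higher in every AD than in every Null library: fibroblast markers summed to 623 to 816 CPM in AD and 367 to 493 in Null (8 of 9 log2 fold changes above 0, median 0.54), smooth muscle markers to 97.3 to 106 and 65.4 to 78.1 (6 of 6, median 0.55) and endothelial markers to 206 to 229 and 173 to 195 (6 of 6, median 0.49). EdgeR called none of these, with 3, 2 and 3 genes at an unadjusted p under 0.05, and their part in the Cyp2e1 and Cyp4b1 values was not tested. Adipoq was at 27.0 to 35.5 CPM in AD, 14.2 to 30.8 in Het and 8.68 to 8.77 in Null. With Adipoq as a covariate, chosen after the data were seen, Cyp4b1 had a log2 fold change of -1.18 in place of 1.30. Cyp2e1 had 1.86 in place of 2.56 (edgeR adjusted p = 0.999). Adipoq itself did not overlap between AD and Null, so this fit cannot separate its level from genotype, and no conclusion is drawn from it. Hepatocyte markers summed to 14.7 to 20.3 CPM in AD and 15.2 to 19.7 in Null thymus. Cyp2a5 (0.05 ± 0.27), Cyp1b1 (0.32 ± 0.27), Cyp4f16 (0.10 ± 0.19), Cyp4f17 (0.09 ± 0.18), Cyp2g1 (-0.30 ± 0.23) and Cyp2j9 (-0.12 ± 0.26) had AD and Null libraries that overlapped. Cyp2j6 (0.38 ± 0.21) did not, at 3.89 to 5.21 CPM in AD and 3.21 and 3.46 in Null. The share of all genes without overlap was not counted in thymus, so the genes and lists that parted here have no background. Parting also comes more easily with 3 AD and 2 Null libraries than with 3 of each. Cyp1a2 (0.03 ± 0.47) and Cyp3a13 (-0.64 ± 0.38) were at low levels.

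Whether the genotype difference of a P450 gene itself differs between tissues was tested as an interaction over the 23 basal libraries of AD and Null, with 73 members among 24431 genes. EdgeR called no member in liver minus intestine (0.0327% of genes called), liver minus pancreas (0.0737%) or intestine minus pancreas (0.00819%), and DESeq2 called none. At an unadjusted p under 0.05 edgeR held 13, 5 and 5 of the 73, against 7.76%, 10.9% and 5.69% of all genes. Many of the 73 passed the filter through 1 tissue only and are at or near 0 counts in another, where the interaction cannot be estimated. Members that passed within both tissues numbered 35, 13 and 14, and of these edgeR called none and held 9, 3 and 3 at an unadjusted p under 0.05. The share over all genes that passed within both tissues was not computed, so these counts have no background and are not read as an excess. Cyp2u1 had an interaction of 1.40 ± 0.45 between intestine and pancreas (edgeR adjusted p = 0.642), with AD higher in intestine and lower in pancreas. With the animal number as a replicate block, edgeR called no member in any of the 3, 11 genes in place of 18 for liver minus pancreas, and 0 genes in place of 2 for intestine minus pancreas.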

How the data were processed

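The authors deposited 1 table of read counts per gene (whole numbers, not normalized) for 42 libraries. The submitters' processing notes name STAR 2.6.0b, the build GRCm38 and DESeq2; the counter, strand and annotation release are not given in the sources used here. GENCODE M21 gave symbols (43749 identifiers matched with version, 5577 without, 259 not) and exon lengths for TPM. Tests ran in R 4.3.3 with edgeR 4.0.16 (TMM, filterByExpr, robust quasi-likelihood F test, Benjamini-Hochberg over all genes tested) and DESeq2 1.42.0, and the scripts were tested on simulated data. Log2 CPM used a prior count of 2. A standard error is the log2 fold change divided by the root of its F value. Members, lists and tests were chosen with earlier results of these data known. Genes were named by rule: per tissue, the 5 highest by TPM and the 3 largest changes each way among tested members whose mean log2 CPM is 1 or more, a fixed set of 12, and called genes; others named by their pattern were chosen after their values were seen. Tissues of an animal are paired by its number in the labels: of 33 pairs, 2 had residuals correlated above 0.1 (median 0.04). The labels name animals, so p-values cover the spread between these few mice. Counting error alone is small for all but the lowest genes at these depths.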

Additional observations from a re-analysis of the deposited data

Results flagged for a closer look

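For Cyp2u1 and Cyp2s1 the AD and Null libraries parted in opposite directions in different tissues, AD higher in intestine and lower in pancreas. The difference of these differences was 1.40 ± 0.45 (log2) for Cyp2u1, with an adjusted p of 0.642 by edgeR, and 0.48 ± 0.40 for Cyp2s1, with an adjusted p of 0.976, so neither passed the threshold. Their pancreas levels were low, at 0.931 to 1.66 CPM for Cyp2u1 and a mean of 0.743 CPM, scaled to library totals, for Cyp2s1. The pancreas log2 fold change of Cyp2s1 was -0.19 ± 0.38. How many of all genes part in opposite directions in a pair of tissues was not counted, so these genes have no background.

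The 16 irradiated thymus libraries, taken 4 h after exposure, enter no test; their values are set beside basal thymus here. Scaled to library totals, Cyp4f13 stood in irradiated AD thymus at a mean of 10.9 CPM (SD 0.911, n = 4) and in irradiated Het thymus at 10.4 CPM (SD 0.236, n = 4), with every library above the basal libraries of the same genotype, which had means of 8.15 (SD 0.631, n = 3) and 7.79 CPM (SD 0.333, n = 3). Cyp4f17 did so in Het, at 7.99 CPM (SD 0.408, n = 4) against 6.39 (SD 1.2, n = 3), and Cyp4v3 in Null, at 7.26 CPM (SD 0.38, n = 4) against 5.71 (SD 0.898, n = 2). Among all genes with a mean of at least 5 CPM, 15% did so in AD, 17.2% in Het and 12.7% in Null, beside 1, 2 and 1 of 7 members, and the differences were not tested.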

How the results depend on the processing

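In liver, where edgeR called 0 of the members and 42 genes, the counts were 4 and 454 with no filter on low counts, 0 and 205 with DESeq2, 0 and 151 with the 23 libraries of 4 tissues fitted together, 0 and 95 with Xist as a covariate, and 7 and 233 over the 4 libraries without AD-702 and Null-859. With no filter the 4 were Cyp2c50, Cyp2c68, Cyp2c70 and Cyp4a31 (edgeR adjusted p = 0.00677, 0.00252, 0.00734 and 0.0492). Leaving out each library in turn gave 0 to 3 members and 3 to 87 genes. Without AD-702 the 3 were Cyp2c54, Cyp2c68 and Cyp4a14, and without Null-859 the 1 was Cyp2c29. In intestine (0 and 3), no filter gave 1 and 50, DESeq2 1 and 106, RLE scaling 6 genes, the joint fit 10 genes, the 4 libraries 1 and 20, and leaving out each library 0 to 1 and 3 to 8. In pancreas (0 and 8), genes called were 209 with no filter, 49 with DESeq2, 18 in the joint fit, 62 with Xist and 180 over 4 libraries, and 4 to 26 leaving out each. In thymus (0 and 15), no filter gave 1 (Cyp4b1) and 403, DESeq2 1 and 178, the AD and Null libraries only 1 and 167, the joint fit 61 genes, Xist 38, Adipoq 5, and leaving out each 7 to 29; leaving out a Null library left 1, assumed to vary like the other groups. For the interactions, genes called with DESeq2 were 83, 236 and 37 in place of 8, 18 and 2; for liver minus pancreas RLE scaling gave 31 and no filter 35; the replicate block gave 12, 11 and 0; leaving out each animal gave 2 to 13, 4 to 74 and 0 to 3. Signs of named genes that were called in neither setting also turned. Over the 4 libraries they did in liver for Cyp2b10 (-0.44), Cyp2e1 (-0.018), Cyp2g1 (-0.25), Cyp3a16 (0.040) and Cyp3a41a (0.14), in intestine for Cyp2b10 (0.0028), Cyp2d26 (0.020) and Cyp3a44 (1.07), and in pancreas for Cyp1b1 (0.39) and Cyp4f17 (0.11). With Adipoq they did in thymus for Cyp1b1 (-0.25), Cyp2g1 (0.022), Cyp2j6 (-0.36), Cyp4b1 (-1.18) and Cyp4f17 (-0.57), and with Xist for Cyp2b10 in liver (-0.046), Cyp1b1 in intestine (-0.033), and Cyp1a2 (-0.0056) and Cyp2a5 (-0.049) in thymus. Leaving out each library in turn, liver values ran from -0.70 (without AD-702) to 0.40 for Cyp2b10, -0.94 (without AD-702) to 1.18 for Cyp2g1, -0.024 to 0.86 for Cyp2d9, -0.11 to 0.18 for Cyp4b1 and, highest without Null-859, -4.27 to 1.12 for Cyp3a16, -7.25 to 5.65 for Cyp3a41a and -4.87 to 3.21 for Cyp3a44. In intestine they ran from -0.12 to 0.26 for Cyp1b1, -0.27 to 0.0042 for Cyp2b10, -0.25 to 0.0086 for Cyp2d26, -0.93 to 0.77 for Cyp3a44, -0.34 to 0.029 for Cyp4a10 and -0.14 to 0.25 for Cyp4b1. In pancreas they ran from -0.26 to 0.27 for Cyp1b1, -0.31 to 0.22 for Cyp4b1 and -0.35 to 0.10 for Cyp4f17, and in thymus from -0.29 to 0.34 for Cyp1a2, -0.24 to 0.43 for Cyp2a5, -0.28 to 0.058 for Cyp2j9 and -0.074 to 0.29 for Cyp4f17. The cause of these changes was not tested. By CPM in place of TPM, 51 members were highest in liver in place of 52. With 2 or 3 mice a group and 61 members tested in liver but 14 in pancreas, a miss of the threshold does not show that AD and Null were alike.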

Other observations

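Cyp2e1 varied widely in irradiated thymus within each genotype. Scaled to library totals, it ran from 4.39 to 25.4 CPM in Null, 4.82 to 31.2 in Het, 7.85 to 23.3 in AD and 5.24 to 25.4 in RP (genotype p53 RP/-), with 4 libraries each. The highest library of each genotype for Cyp2e1 was also its highest for Adipoq: Null-856 (25.4 and 39.5 CPM), Het-631 (31.2 and 39.5), AD-727 (23.3 and 33.7) and RP-656 (25.4 and 30.1). In basal thymus the order was not always shared: Het-703 had Cyp2e1 at 5.28 and Adipoq at 29.0 CPM, and Het-697 had 9.64 and 14.0. Basal Null-859 had 2.6 and 8.85, and Null-923 had 5.67 and 8.64. The part of adipocytes in the Cyp2e1 values was not tested. Basal thymus stood at 21.5 to 28.1 CPM in AD and at 2.6 and 5.67 in Null on the same scale, and 3 of the 4 irradiated Null libraries, Null-604 (5.95), Null-857 (21.1) and Null-856, lay above both basal Null libraries.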
